A study of Danio rerio with 7 samples.

Results

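The primitive erythroid genes *hbae3*, *hbae1*, *hbbe3*, *alas2*, *urod*, *slc4a1a*, *epb41b*, *cahz* and *nfe2* were examined for regions whose chromatin accessibility differed between endothelial and other cells of the zebrafish embryo. A region belonged to these 9 genes when the deposited peak table named 1 of them as its nearest promoter, which held for 21 of 44025 peaks. These 21 peaks were shared by 5 of the 9 genes, with 8 peaks for *hbae3*, 7 for *cahz*, 3 for *nfe2*, 2 for *urod* and 1 for *epb41b*. The genes *hbae1*, *hbbe3*, *alas2* and *slc4a1a* were the nearest promoter of no peak in the table. Peaks were assigned to 9030 genes in all, beside 14612 gene models in the annotation, so many other genes also had none.

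Accessibility was measured by ATAC-seq, in which a transposase inserts sequencing adapters into DNA that is not wrapped in nucleosomes. Cells were sorted at 26 to 27 hpf (hours post-fertilization) from embryos of the wild-type background carrying Tg(*kdrl*:GFP)s843, a transgene in which the promoter of the VEGF receptor gene *kdrl* drives GFP in endothelium. The labels give 3 *kdrl*:GFP+ libraries from the brightest GFP cells and 3 *kdrl*:GFP- libraries, with 40000 to 50000 cells in each, and 1 genomic DNA control from 30000 cells at 28 to 30 hpf. The table holds 1 value per peak and group, the concentration (log2 of the mean normalized reads), so the spread between libraries and the depth of each are unknown here, no value has an error and no difference could be tested. How many of the labelled libraries stand behind each group value is not given in the table, and by the study's text outlying *kdrl*:GFP+ libraries were removed, so that fewer *kdrl*:GFP+ and more *kdrl*:GFP- libraries were compared than the labels list. All peaks listed had passed the study's threshold for differential peaks, p below 0.05, and regions open to a like degree in both populations are not part of the table.

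Primitive erythroid cells are the first red cells of the embryo. They arise from the intermediate cell mass of the lateral mesoderm, close to the forming vessels and from precursors related to endothelium, and enter the circulation at about the stage that was sampled. They express embryonic globins, the enzymes that make haem, the membrane and skeleton proteins that give the red cell its shape, and transcription factors of the GATA, KLF and NF-E2 families. The *kdrl*:GFP- population holds GFP-negative cells of many tissues, so its concentration at an erythroid site is an average in which fewer cells with an open site and less opening per cell cannot be told apart. By the study's text, *kdrl*:GFP+ cells likely hold erythromyeloid progenitors that express *runx1* as well as endothelium, so their concentrations may be averages too.

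Markers were compared first as a check of the sorted populations. Of the 68 peaks within 20 kb of the start sites of the listed endothelial genes, 63 had a higher concentration in *kdrl*:GFP+ cells. The share over all peaks within 20 kb of a start site was 48.8%. Counted at any distance, *fli1a*, an ETS factor of endothelium, had 8 of 8 peaks higher, *kdrl* itself had 9 of 10, and *cdh5*, the endothelial cadherin, had 5 of 9, whereas *tie1* was the nearest promoter of no peak. Only 14 of the 19 listed endothelial genes had a gene model, so a gene without a peak may be missing from the annotation. Of 51 peaks near listed neural genes, 49 were lower, beside 51.2% of all peaks within 20 kb.

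Of the 21 peaks nearest to primitive erythroid genes, in *kdrl*:GFP+ cells 10 had a higher and 11 a lower concentration. Over all 44025 peaks, 44.7% were higher and 55.3% lower, and the 95% Wilson interval of the erythroid share, 28.3 to 67.6%, holds that background. This interval covers counting error only, and neighbouring peaks are not independent. The median log2 difference (*kdrl*:GFP+ minus *kdrl*:GFP-) was -1.41 for the 21 peaks and -1.19 for all peaks, and leaving out *cahz* alone turned the former to 1.83. Without *hbae3* the share of higher peaks was 23.1%. The 10 higher peaks ranged from 1.34 to 7.02 with a median of 2.39, beside 2.53 for all higher peaks of the table. The 11 lower peaks ranged from -3.08 to -1.41 with a median of -1.90, beside -2.08 for all lower peaks. A difference of at least 8-fold (3 on the log2 scale) was found upwards at 4 of the 21 peaks, all of them at *hbae3*, beside 17.8% of all peaks. The same difference was found downwards at 1 peak, at *cahz*, beside 13.3% of all peaks. The shares of higher and lower peaks of the erythroid genes as a group therefore lay near the table's background, whereas the single genes lay on opposite sides.

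**Figure D1:**
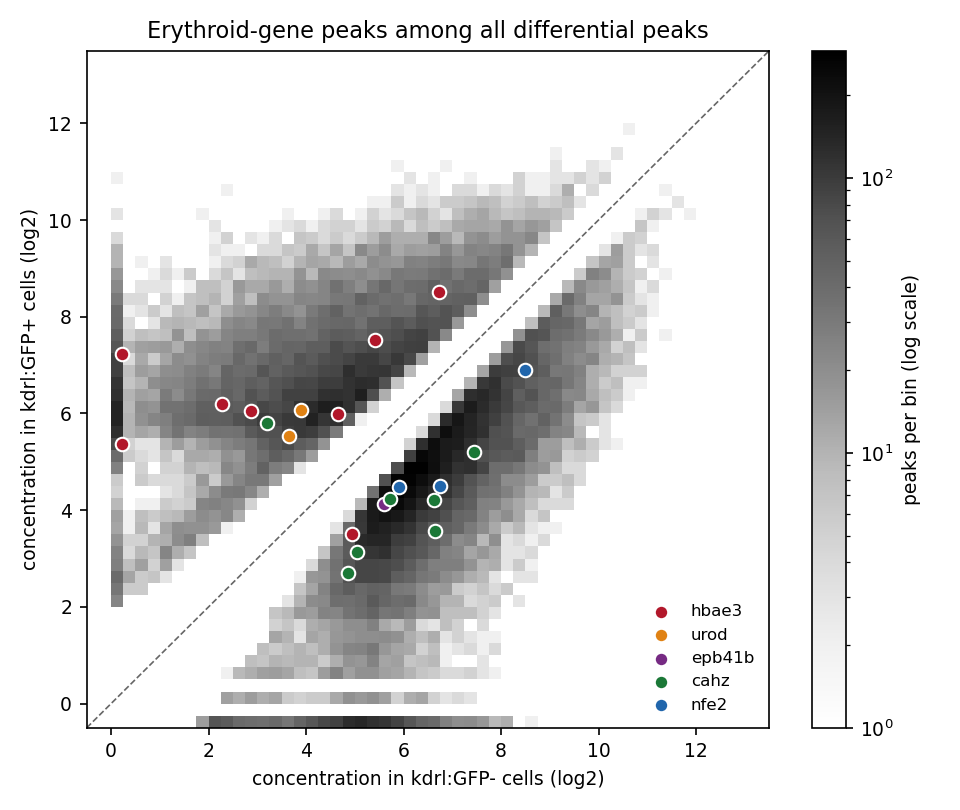
Concentration of each peak in *kdrl*:GFP+ cells (y axis, log2) against *kdrl*:GFP- cells (x axis, log2), with all 44025 peaks as grey bins and the 21 erythroid-gene peaks as coloured points. No peak of the table lies in the band along the dashed line of equality, since only peaks past the study's threshold are listed. Of the *hbae3* points, 7 lie above the line, and 6 of 7 *cahz* points and all 3 *nfe2* points lie below it.

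The direction of the peaks differed between genes. *hbae3* had 7 of 8 peaks higher in *kdrl*:GFP+ cells and *urod* 2 of 2, whereas *cahz* had 6 of 7 lower, *nfe2* 3 of 3 and *epb41b* its only peak. Among the 284 genes with 8 peaks, 32 (11.3%) had 7 or more of them higher, as *hbae3* did. Among the 336 genes with 7 peaks, 84 (25.0%) had 6 or more of them lower, as *cahz* did. All 3 peaks were lower at 197 of 1048 genes with 3 peaks (18.8%), as at *nfe2*. Both peaks were higher at 560 of 1543 genes with 2 peaks (36.3%), as at *urod*. The peak was lower at 1150 of 2633 genes with 1 peak (43.7%), as at *epb41b*, and a single peak can show no agreement between peaks. Patterns of this kind were therefore shared by many other genes of the table.

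**Figure D2:**
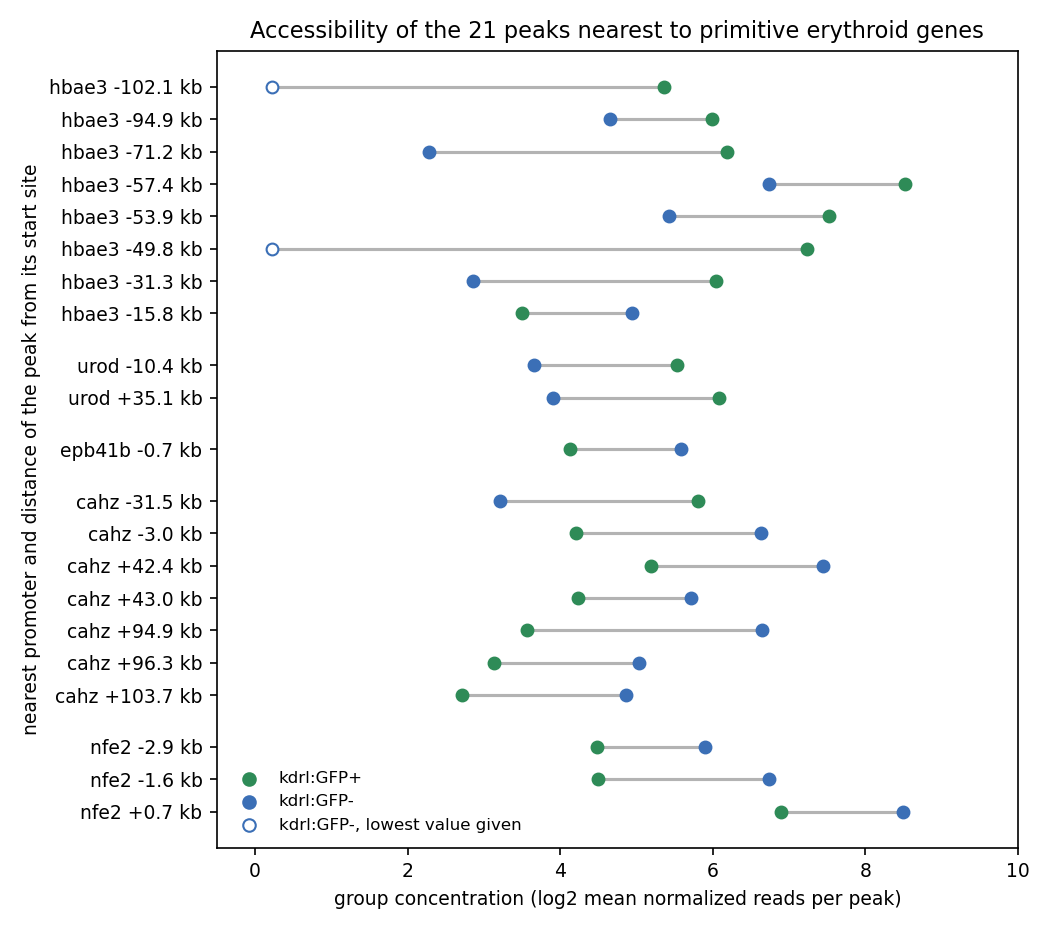
Group concentrations (x axis, log2 mean normalized reads per peak) of the 21 peaks, each row being 1 peak named by its nearest promoter and its distance from that start site, negative when upstream. Green points are *kdrl*:GFP+ cells, blue points *kdrl*:GFP- cells, and open points mark the lowest value given for *kdrl*:GFP- cells (0.22). The green point lies to the right in 7 of 8 rows of *hbae3* and to the left in all 3 rows of *nfe2*.

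The globin genes were described first, since *hbae3* had more peaks than any other member. *hbae3* encodes an embryonic alpha-type globin and lies on the minus strand of chromosome 3 of the Zv9 assembly, from 55998282 to 55999403, with *hbae1*, another embryonic alpha-type globin, at 55972040 to 55972738. No differential peak overlapped the 56.5 kb from 55942922 to 55999403, which holds 13 gene models including *hbae1*, *hbae3*, *hbbe1.1* and *hbaa1*. All 8 peaks of *hbae3* lay upstream of it and were annotated as intergenic.

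The peak closest to *hbae3*, 15.8 kb upstream (56015021 to 56015328), was the one that was lower, with a concentration of 3.50 in the GFP+ fraction and 4.94 in the GFP- fraction, a log2 difference of -1.44. The other 7 lay 31.3 to 102 kb upstream, and all were higher in *kdrl*:GFP+ cells, with a median log2 difference of 3.18. Their concentrations ranged from 5.36 to 8.52 in *kdrl*:GFP+ cells and from 0.22 to 6.74 in *kdrl*:GFP- cells.

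The largest difference was at the peak 49.8 kb upstream of *hbae3* (56048955 to 56049507), with a concentration of 7.24 in the GFP+ fraction and the lowest value listed for the GFP- fraction. Its log2 difference of 7.02 rests on that lowest value, 0.22, which 1499 peaks of the table share. The peak 102 kb upstream (56101397 to 56101703) was also at this value in *kdrl*:GFP- cells, with a concentration of 5.36 in *kdrl*:GFP+ cells and a log2 difference of 5.14. Without these 2 peaks, 2 of the 19 remaining erythroid peaks (10.5%) were at least 8-fold higher, beside 15.8% of all peaks above the lowest values.

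A pair of peaks next to the largest one was open in both populations. The peak 57.4 kb upstream (56056397 to 56057290) had the highest *kdrl*:GFP+ concentration of the 21, 8.52, beside 6.74 in *kdrl*:GFP- cells, a 3.44-fold difference. The peak 53.9 kb upstream (56052962 to 56053651) had 7.52 and 5.42, a 4.30-fold difference. Scaled to 1 kb of peak width, the former stood above 90.2% and the latter above 79.6% of all peaks in *kdrl*:GFP+ cells. These 3 neighbours lay within 8.34 kb of each other. The remaining higher peaks of *hbae3* were at 31.3 kb (6.04 and 2.86), 71.2 kb (6.19 and 2.29) and 94.9 kb (5.99 and 4.65 in *kdrl*:GFP+ and *kdrl*:GFP- cells).

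On the other side of the globin genes, the nearest differential peak lay at 55905320 to 55905683, 92.6 kb from *hbae3* and 66.4 kb from *hbae1*. By annotation it fell in exon 10 of 13 of *nprl3*, a gene whose mammalian counterpart holds the main distal enhancers of the alpha-globin genes in its introns. It was assigned to the promoter of *mpg* and had a concentration of 6.91 in the GFP+ fraction and 1.23 in the GFP- fraction, a log2 difference of 5.69. The globin models were thus flanked on both sides, at distances over 30 kb, by peaks with more signal in the GFP+ fraction, with the single lower peak between them. None of these peaks is linked to a globin gene by more than position, and the *nprl3* peak was annotated as exonic, not intronic.

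**Figure D3:**
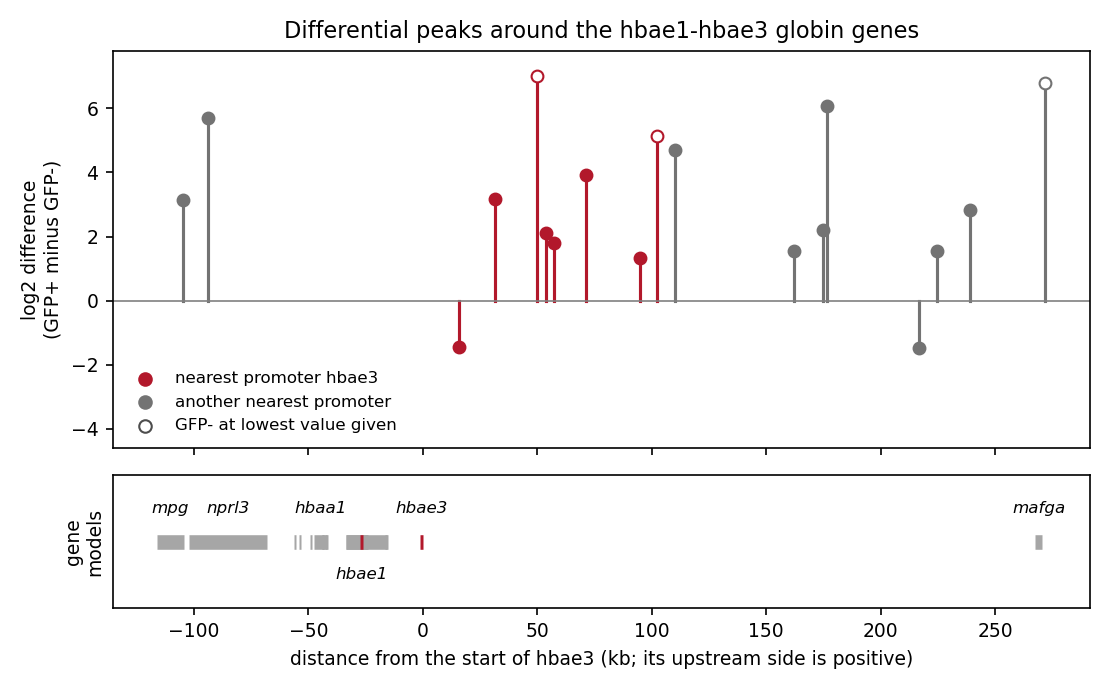
Log2 difference of each differential peak (y axis, *kdrl*:GFP+ minus *kdrl*:GFP-) against its distance from the start of *hbae3* (x axis, kb), with gene models below. Red marks peaks whose nearest promoter is *hbae3* and the models of *hbae1* and *hbae3*, and open points mark peaks at the lowest *kdrl*:GFP- value. No peak lies over the 13 models from -56.5 to 0 kb.

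*hbbe3* encodes an embryonic beta-type globin and belongs to the second globin locus, on chromosome 12 (21691962 to 21693036, minus strand). No differential peak lay within 20 kb of it. The nearest, 30.1 kb downstream (21661419 to 21661861) and assigned to *zgc:163057*, had a concentration of 6.95 in the GFP+ fraction and the lowest value listed for the GFP- fraction, a log2 difference of 6.73. On the upstream side the nearest was at 32.3 kb, in the promoter of the aquaporin gene *aqp8a.1*, with 7.78 and 6.03, a 3.37-fold difference. Both flanking peaks were higher in *kdrl*:GFP+ cells, and neither is linked to *hbbe3* by more than position. At the chromosome 3 locus the nearest peak on the upstream side was the lower one.

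Of the haem enzymes, *alas2* encodes the erythroid form of 5-aminolevulinate synthase, which starts haem synthesis, and *urod* encodes uroporphyrinogen decarboxylase of the same pathway. No differential peak lay within 50 kb of *alas2* (chromosome 8, 21891958 to 21907046, plus strand). The nearest, at 55.2 kb downstream and 67.6 kb upstream, were both higher in *kdrl*:GFP+ cells, by 5.01 and 4.29 on the log2 scale. The 2 peaks of *urod* (chromosome 2, 27704112 to 27723869, minus strand) lay inside neighbouring genes.

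The peak 10.4 kb upstream of *urod* (27734135 to 27734451) fell in intron 10 of *lyn*, which encodes a Src-family kinase of blood cells. Its concentration was 5.54 in the GFP+ fraction and 3.65 in the GFP- fraction, a 3.69-fold difference. The peak 35.1 kb downstream of the *urod* start (27688543 to 27689032) fell in the last exon of *zswim5* and had 6.08 and 3.90, a 4.51-fold difference. A further peak in intron 8 of *lyn*, 17.0 kb from *urod* and assigned to *lyn*, had 9.39 and 5.60, a log2 difference of 3.79. Within 20 kb of *urod* all peaks were therefore higher in *kdrl*:GFP+ cells, and none of them lay in *urod* itself.

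The membrane genes gave 1 promoter peak. *epb41b* encodes protein 4.1, which ties the spectrin-actin skeleton to the red cell membrane, and its peak (chromosome 16, 28699539 to 28700035) ended 0.492 kb before the first exon. This was the only 1 of the 21 peaks annotated as a promoter. Its concentration was 4.13 in the GFP+ fraction and 5.59 in the GFP- fraction, a 2.75-fold lower value in *kdrl*:GFP+ cells. No other differential peak lay within 50 kb of the gene.

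*slc4a1a* encodes band 3, the anion exchanger of the red cell membrane (chromosome 3, 19955146 to 19981240, minus strand). A peak at 19954812 to 19955257 covered the 3′ end of its model but was assigned to the promoter of *ubtf*, so it is not among the 21. It had a concentration of 4.87 in the GFP+ fraction and 6.12 in the GFP- fraction, a log2 difference of -1.25. No peak was listed at the *slc4a1a* promoter, and the nearest one upstream was 36.1 kb away.

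*cahz* encodes the carbonic anhydrase of zebrafish red cells (chromosome 2, 29192216 to 29199937, minus strand). The peak nearest to it, 2.98 kb upstream (29202706 to 29203133), had a concentration of 4.21 in the GFP+ fraction and 6.63 in the GFP- fraction, a 5.35-fold lower value in *kdrl*:GFP+ cells. Its other upstream peak, at 31.5 kb (29231307 to 29231593), was the only one of *cahz* that was higher, with 5.81 and 3.21, a 6.08-fold difference. The 5 peaks on the downstream side lay 42.4 to 104 kb from the start and were all lower.

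Of these downstream peaks, the one 94.9 kb away (29104728 to 29105262) had the most negative difference of the 21, -3.08, with concentrations of 3.57 and 6.65. The highest *kdrl*:GFP- concentration at *cahz*, 7.45, was at 42.4 kb (29157257 to 29157721), where *kdrl*:GFP+ cells had 5.20. The 6 lower peaks had concentrations of 2.71 to 5.20 in *kdrl*:GFP+ cells and log2 differences of -3.08 to -1.48.

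*nfe2* encodes the p45 subunit of NF-E2, a basic leucine zipper factor that in mouse acts in the erythroid and megakaryocytic lineages. Its model (chromosome 23, 36363128 to 36364907, minus strand) has 2 exons and was largely covered by a single peak of 2070 bp (36363182 to 36365251), wider than 99.2% of all peaks. This peak held all of exon 1 and 95.7% of exon 2, with the start site. It had a concentration of 6.89 in the GFP+ fraction and 8.50 in the GFP- fraction, a 3.04-fold lower value in *kdrl*:GFP+ cells. Before scaling by width its *kdrl*:GFP- concentration stood above 92.3% of all peaks, and per kb above 67.3%.

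Upstream of *nfe2*, a peak at 1.6 kb (36366177 to 36366790) had 4.49 and 6.74, a 4.76-fold difference, and a peak at 2.86 kb (36367403 to 36368124) had 4.49 and 5.90, a 2.66-fold difference. Both were lower in *kdrl*:GFP+ cells. All 3 peaks of *nfe2* thus lay within 3 kb of its start. A further peak 2.22 kb beyond the 3′ end of *nfe2*, in exon 10 of *hnrnpa1b*, was at the lowest value in *kdrl*:GFP+ cells and at 3.84 in *kdrl*:GFP- cells.

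The distance from the start site was then compared over all 21 peaks. Within 20 kb, 6 of 7 peaks were lower in *kdrl*:GFP+ cells, beside 51.2% of all 13420 peaks within 20 kb of a start site, and the exception was the *urod* peak in *lyn*. The log2 differences of the 6 ran from -2.42 to -1.41, and none of the 7 peaks reached 8-fold. Of all peaks within 20 kb, 20.4% were at least 8-fold higher and 12.1% at least 8-fold lower. Beyond 20 kb, 9 of 14 were higher, beside 42.8% of all such peaks. The Wilson interval of the share of higher peaks was 2.57 to 51.3% within 20 kb and 38.8 to 83.7% beyond it. The intervals overlapped, but they take peaks as independent, so they do not measure a difference between near and far peaks. The near peaks come from 5 genes, with 3 of the 7 at *nfe2*, and the far ones mostly from *hbae3* and *cahz*. By position alone, irrespective of the assigned promoter, 12 peaks lay within 20 kb of the models of 6 of the 9 genes. Of these, 9 were lower, including the peak at the end of *slc4a1a*, beside 55.3% of all 44025 peaks. That share takes in peaks at any distance, and no share matched by position was computed. Of the 9 lower peaks, more lay near *nfe2* than near any other member.

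**Figure D4:**
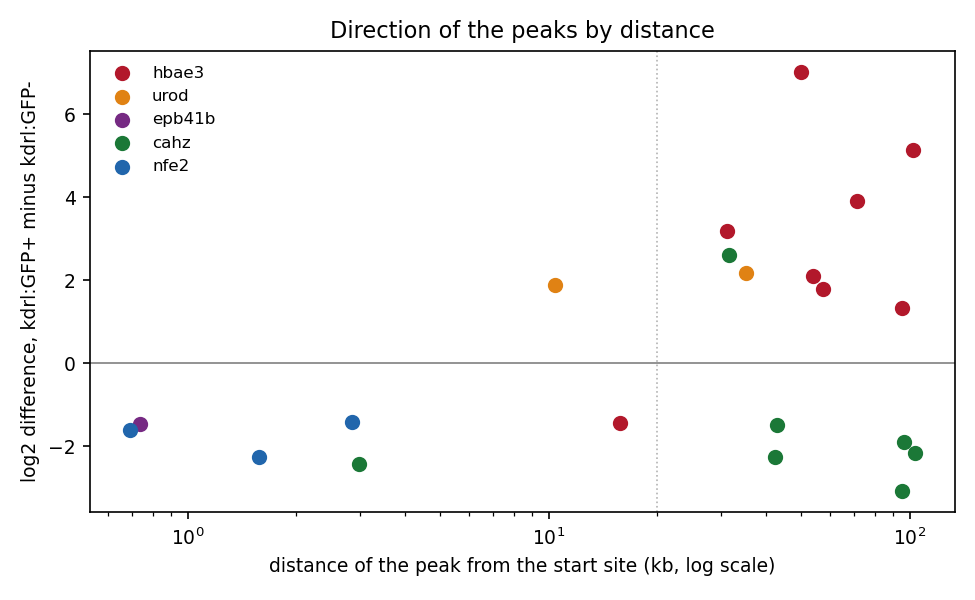
Log2 difference (y axis, *kdrl*:GFP+ minus *kdrl*:GFP-) of the 21 peaks against their distance from the start site (x axis, kb on a log scale), coloured by nearest promoter; the dotted line marks 20 kb. Left of it 6 of 7 points lie below 0, and right of it 9 of 14 lie above 0.

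The 21 peaks were close to all peaks in median width and distance, but a smaller share of them was intronic. An intron held 1 of the 21 (4.76%, Wilson interval 0.85 to 22.7%), beside 25.7% of all peaks. The 21 were intergenic in 17 cases (81.0%, Wilson interval 60.0 to 92.3%), beside 67.5% of all peaks, and had a median width of 457 bp, beside 502 bp. Both intervals take peaks as independent, whereas the 21 come from 5 genes, with 8 at *hbae3* and 7 at *cahz*. The models of these genes span only 1.12 and 7.72 kb, so the intronic share describes few loci. Their median distance from the start site, 42.4 kb, was close to that of all peaks, 41.8 kb. The lowest concentration was met at 2 of them in *kdrl*:GFP- and at 0 in *kdrl*:GFP+ cells, beside 1499 and 1450 of all 44025 peaks.

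Other genes of the red cell programme were read against these. Among 16 genes listed as erythroid transcription factors, 11 were the nearest promoter of a peak. Within 20 kb of a start site, 26 of their 31 peaks were higher in *kdrl*:GFP+ cells, beside 48.8% of all such peaks. The median log2 difference of the 31 was 2.0, beside -0.95 for all peaks within 20 kb. *gata1a*, the leading factor of the erythroid lineage, had a single peak, 3.99 kb from its start and annotated as exonic, with 6.83 in the GFP+ fraction and 1.89 in the GFP- fraction, a log2 difference of 4.95. At the lowest *kdrl*:GFP- value were near peaks of *zfpm1*, a GATA cofactor (6.76), *lmo2*, a bridging factor shared by blood and endothelium (6.60), *klf17*, a Krüppel-like factor of primitive red cells (6.22), and *bcl11aa*, whose mammalian counterpart represses globin genes (5.74). At any distance the same list had 37 of 82 peaks higher (45.1%), near the 44.7% of all peaks. Much of the list at any distance was *bcl11aa*, with 32 of 37 peaks lower. *klf17* had 3 of 7 peaks lower, down to -8.59, and *zfpm1* 4 of 8, whereas all 6 of *lmo2* were higher. The near peaks of these factors were thus mostly higher. Among the members, the near peaks of *nfe2*, *cahz*, *epb41b* and *hbae3* were lower, whereas that of *urod* was higher. The difference between the lists was not tested.

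In the haem and iron list, leaving out the members, 1 of 6 near peaks was higher, beside 48.8% of all peaks within 20 kb of a start site. That one lay 17.4 kb from the start of *slc40a1*, which encodes the iron exporter ferroportin, at 9.08 in *kdrl*:GFP+ cells and at the lowest *kdrl*:GFP- value, a log2 difference of 8.86. All 5 lower near peaks came from *ppox*, an enzyme of haem synthesis (down to -4.47), and *blvrb*, a biliverdin reductase (down to -4.14). The count therefore rests on few genes of the list. At any distance, all 8 peaks of *ppox* and all 4 of *blvrb* were lower. In the list of membrane and other red cell genes, again without members, 11 of 14 near peaks were higher, beside the same 48.8%. They included *nt5c2l1* (5.48), *aqp1a.1*, a water channel (3.83), and *rhag*, the Rh-associated glycoprotein (3.42), whereas *tmod4*, a tropomodulin (-5.40), was lower and at the lowest *kdrl*:GFP+ value. No further gene of the globin list was the nearest promoter of a peak. The list was matched by symbol, so a globin gene printed under another name would not be counted. Only 8 of the 19 listed globin symbols had a gene model, so the other names may be missing from the annotation.

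Markers of myeloid cells were read as a check for other blood cells. Of the 25 peaks nearest to 9 of 15 listed myeloid genes, 19 were higher in *kdrl*:GFP+ cells, beside 44.7% of all peaks. Within 20 kb of a start site 10 of 14 were higher, beside 48.8% of all such peaks. *spi1b*, the myeloid factor Pu.1, had 2 of 2 peaks higher, by 5.55 and 5.74 on the log2 scale, and *lyz*, the lysozyme gene of neutrophils and macrophages, 3 of 3. *runx3*, of the same list, went the other way, with 5 of 6 peaks lower. The part of blood cells within the GFP gate in the peaks of the erythroid genes was not tested.

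**Figure D5:**
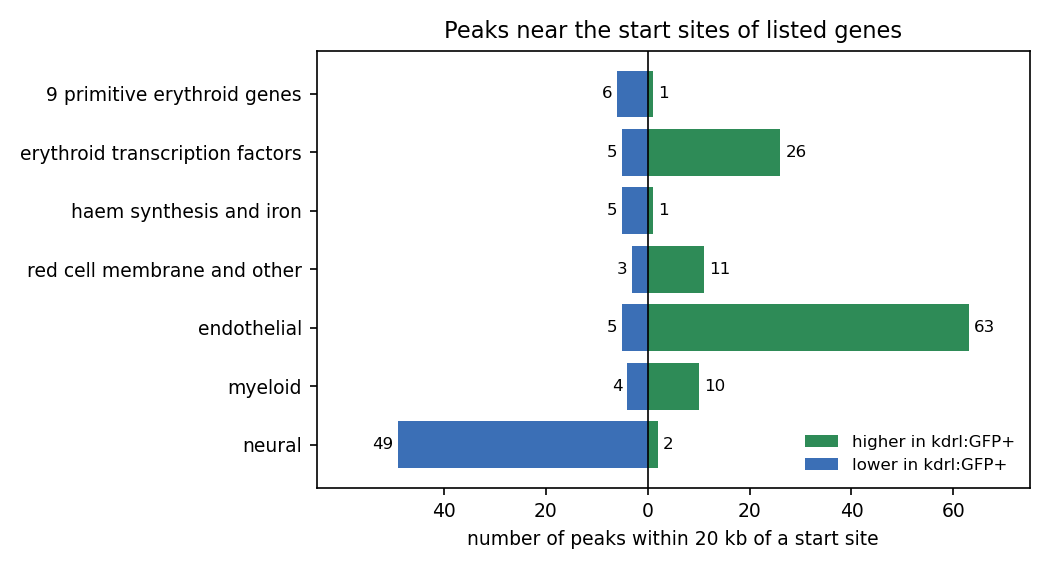
Number of differential peaks within 20 kb of a start site (x axis) that were higher (green, right) or lower (blue, left) in *kdrl*:GFP+ cells, for the 9 primitive erythroid genes and for 6 lists of genes, from which these 9 were left out. The erythroid genes have 1 higher and 6 lower peaks, the erythroid transcription factors 26 and 5, and the endothelial genes 63 and 5.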

How the data were processed

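ATAC-seq reads were trimmed by the authors (Trimmomatic, version 0.32) before mapping by BWA (version 0.7.12) to the Zv9 assembly. Peaks were called per sample with the genomic DNA control as background, and the authors compared the groups with DiffBind (edgeR method); the peak caller and read scaling are not given in the sources used here. The control is tagmented whole-embryo DNA by the labels and DNA of *kdrl*+ cells without transposase by the methods. The deposited concentrations are log2 values of mean normalized reads, 1 per group. The authors' fold changes, p-values and false discovery rates were not used. A deposited gene table holds 6 columns of per-sample values (WT and Mo) that match no sample of this series, so expression was not analysed here and only its gene models were used.

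The difference of both concentrations was computed for all peaks, and peaks were taken by the printed symbol of the nearest promoter. A current RefSeq symbol (GRCz12tu, names only) was found for 92.4% of peaks and added none. All 9 members are named, with their peaks, and of each other list up to 4 genes with the largest difference within 20 kb; of the marker lists, *kdrl*, *fli1a*, *cdh5*, *tie1*, *spi1b* and *lyz* are named. *gata1a*, *runx3* and the flanking peaks were added after their values were seen. Members and lists were chosen with earlier results of these data known. Alternatives changed the distance, threshold, link and members. Functions were tested on simulated data, with Python 3.11.15, numpy 2.4.6, pandas 2.3.3, scipy 1.17.1 and matplotlib 3.10.9.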

Additional observations from a re-analysis of the deposited data

How the results depend on the processing

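The share of higher peaks, 47.6% of 21, was 14.3% within 20 kb of the start site, 23.1% without *hbae3* and, by position within 20 kb of a gene model, 25.0%. In the other 9 alternatives it stayed between 42.1 and 64.3%. The median log2 difference turned positive without *cahz* (1.83), without *nfe2* (1.56), with peaks under 1 kb apart merged (1.78) and by position within 100 kb of a gene model (1.36), and ran from -1.60 to -0.04 in the other 9, so its sign rests on few peaks. The share at least 8-fold higher, 19.0%, was 0% within 20 kb, beside 20.4% of all peaks within 20 kb. It was 0% without *hbae3*, beside 17.8% of all peaks, and 42.9% at a 3-fold threshold, beside 35.3%. The share at least 8-fold lower, 4.76%, was 0% within 20 kb, beside 12.1% of all peaks within 20 kb. It was also 0% without *cahz* and with merged peaks, beside 13.3% of all peaks. At a log2 difference of 2 it was 23.8% and at the 3-fold threshold 33.3%, beside 29.3 and 39.3% of all peaks. The looser thresholds take in more peaks by construction, and the cause of the other shifts was not tested. The links by position were chosen after seeing the data. Leaving out libraries could not be done, since values are pooled. No paired analysis was possible because each group has 1 pooled value per peak. By the study's text, replicates with the same number came from the same sort, a pairing that pooled values cannot use. Depth is unknown from these tables.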

Other observations

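Beyond the peaks of *hbae3*, the same side of the globin genes held 7 peaks assigned to *ldlrap1b*, an adaptor of the LDL receptor. These peaks lay 110 to 239 kb from the start of *hbae3*, and 6 were higher in *kdrl*:GFP+ cells, beside 44.7% of all peaks. Their log2 differences ran from -1.49 to 6.08, the largest at 56175675 to 56176396 of chromosome 3, with a concentration of 9.46 in the GFP+ fraction and 3.38 in the GFP- fraction. A peak next to *mafga*, which encodes a small Maf protein of the family that pairs with NF-E2 p45, lay at 56271143 to 56271504 with 7.03 in the GFP+ fraction and the lowest value listed for the GFP- fraction. Higher peaks were thus not confined to the part of the region that is assigned to a globin gene.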
